A study of Mus musculus with 8 samples.

Results

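Calcineurin, the calcium-activated phosphatase of muscle, and the factors that read its signal in the nucleus were followed in the gastrocnemius (GAS) muscle of mice after prolonged knockdown of MYTHO. The set comprised 10 genes chosen by name: *Ppp3ca*, *Rcan1*, *Rcan2*, *Nfatc1*, *Mef2a*, *Mef2c*, *Mef2d*, *Hdac4*, *Hdac5* and *Hdac9*. Each gene was read from the probe set that names its symbol, and where several probe sets name it, from the one with the highest mean of the group averages. All 10 genes were found among the 22664 gene names on the array's 22206 probe sets, and no filter on low signal was applied, so all 10 entered the comparison.

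MYTHO is the protein encoded by *D230025D16Rik*. Wild-type male C57/Bl6j mice were about 10 weeks old when their GAS was injected with AAV, an adeno-associated virus, carrying a short hairpin RNA against this transcript (AAV sh-RNA MYTHO, the MYTHO-KD group). The opposite leg received a virus with a scramble hairpin (AAV sh-RNA scrmb, the scramble group), so both groups were virus-injected muscles of the same kind of animal. The muscles were taken at 22 weeks of age, 3 months after injection, and hybridised to 4 arrays per group. Both hairpins were driven by the U6 promoter, which is not specific to muscle fibres, and the whole muscle was homogenised, so other cells in the tissue could take up the virus and add RNA. The labels do not tell which arrays came from the same mouse.

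Calcineurin consists of a catalytic and a calcium-binding regulatory subunit. When calcium stays raised it removes phosphates from NFAT factors, which then enter the nucleus, often together with MEF2 factors, and switch on genes of slow and oxidative fibres. Class IIa histone deacetylases (HDACs) bind MEF2 and hold its targets silent until kinases phosphorylate them and 14-3-3 proteins carry them out of the nucleus, while RCAN proteins bind calcineurin and limit it.

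All values below are the authors' averages on the log2 scale with the authors' SD over the 4 arrays of a group, since the table used holds no values of single arrays. Differences are given as MYTHO-KD minus scramble, so that 1 stands for a 2-fold change. It was tested with limma's moderated test, computed from the averages and SDs, with two-sided p-values and Benjamini-Hochberg adjustment over all probe sets. A gene was called changed when it differed at least 2-fold and its unadjusted p was under 0.05, the limit the study used. Because single values were not at hand, overlap of the groups was judged from a bound: 4 values with a given mean and SD cannot lie more than 1.5 SD from that mean. This bound holds if the averages are plain means, which is not given in the sources used here.

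The knockdown was seen in its target, *D230025D16Rik*, which averaged 7.71 ± 0.66 in MYTHO-KD and 10.02 ± 0.37 in scramble muscles, a level of 20.2% of scramble (adjusted p = 0.0138, limma). The defining genes of skeletal muscle were bright in both groups, with averages of 17.64 to 19.93 for 7 markers, though several of them, such as *Acta1* and *Myh4* at 19.93 in both groups, sat at the top of the scale, where a change could not show. Macrophage and fibroblast markers moved with the groups. Of 10 macrophage markers 7 were higher in MYTHO-KD muscles at an unadjusted p under 0.05 (limma), with differences of 0.37 to 2.53 over the list, and the log2 of their summed averages was 12.28 in MYTHO-KD against 11.04 in scramble muscles. Of 10 fibroblast markers 5 were higher, with a summed level of 17.58 against 17.15, and of 10 endothelial markers 2 were higher, with 14.53 against 14.05. Bright probe sets weigh most in these sums, such as *Lyz2* at 11.11 against 9.17 for macrophages and *Dcn* at 16.86 against 16.58 for fibroblasts. The median differences, in which each marker counts alike, were 0.695 for macrophage, 0.72 for fibroblast and 0.34 for endothelial markers. For lymphocytes 0 of 10 markers, and for smooth muscle and pericytes 0 of 9, had an unadjusted p under 0.05 in either direction. Over all probe sets 6.48% were higher and 5.52% lower at this limit. The lymphocyte averages were low, from 4.34 to 7.82 over both groups, where a change may be hard to see. No marker was at 0, since signals on this scale start at 3.18. In such whole-muscle RNA, fewer cells of a type and less RNA per cell cannot be told apart.

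Of the 10 genes, 1 changed. *Rcan1*, which encodes the regulator of calcineurin, was 2.31-fold higher in MYTHO-KD muscles (95% interval 1.68 to 3.19). The other 9 genes, among them the catalytic subunit *Ppp3ca*, the factor *Nfatc1*, the 3 MEF2 factors and the deacetylases *Hdac4*, *Hdac5* and *Hdac9*, were not called. Over all probe sets, 0.86% were called higher and 0.257% lower, so the 1 of 10 called higher here rests on a single gene and says nothing of the other 9. The median difference of the 10 genes was -0.015, close to the -0.01 of all probe sets. Without the fold limit, 2 of 10 were higher at an unadjusted p under 0.05 (*Rcan1* and *Hdac9*) and 0 were lower, where 6.48% of all probe sets were higher and 5.52% lower. Only *Rcan1* held an adjusted p under 0.05, which 0.18% of probe sets did in the higher direction.

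**Figure D1:**
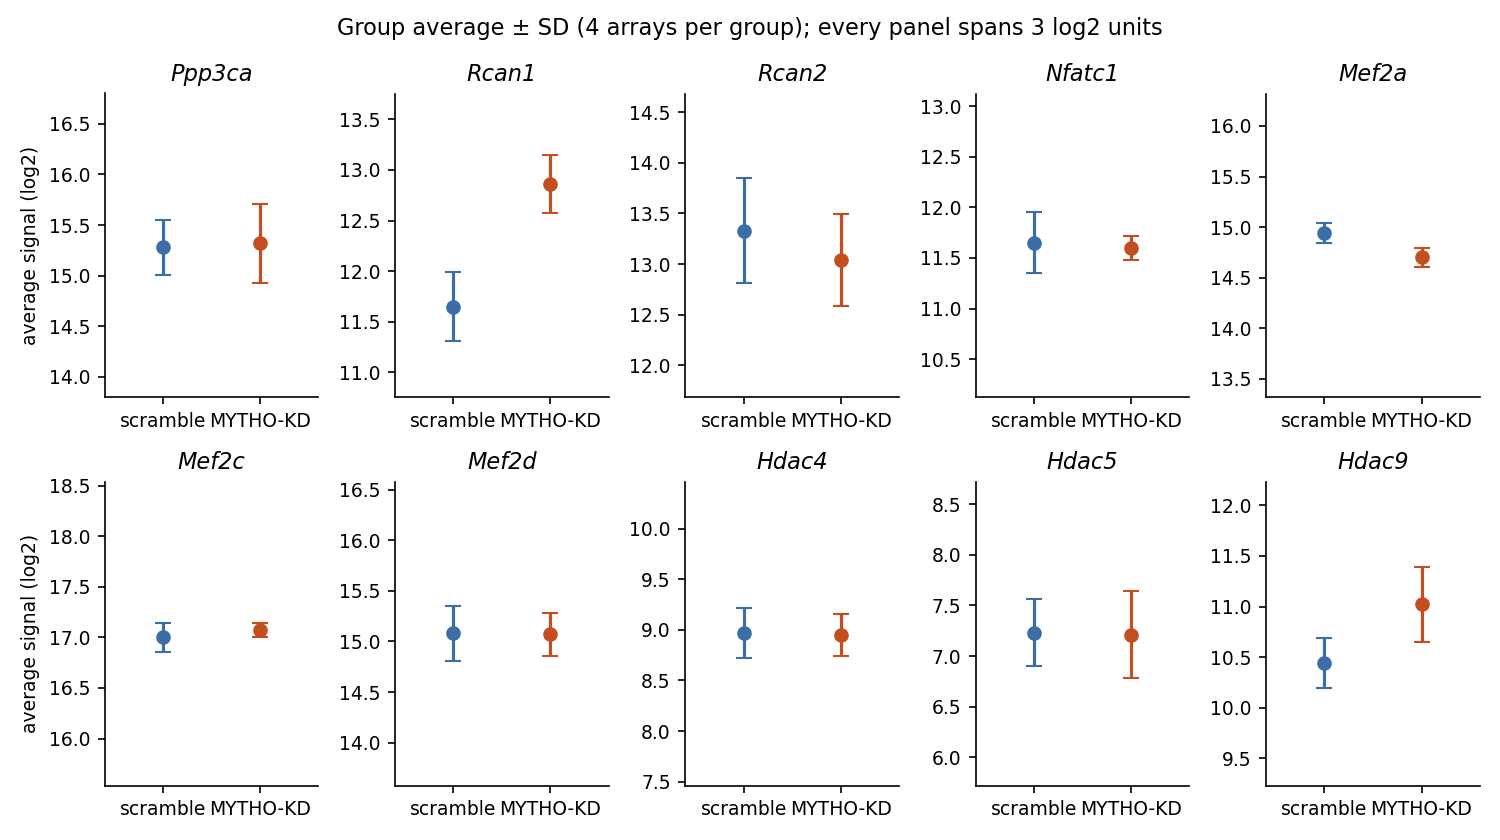
Authors' average signal (log2, vertical axis) with the authors' SD as error bars for the 10 genes in scramble (blue) and MYTHO-KD (orange) GAS muscles, 4 arrays per group. All panels have the same span but their own level, since signals of different probe sets cannot be compared. The *Rcan1* averages of 11.65 and 12.86 differ most, and the *Hdac9* averages of 10.44 and 11.02 come second. The other pairs differ by at most 0.29. Among these, the *Mef2a* averages of 14.94 and 14.70 also lie apart by more than their small SDs of 0.10 and 0.09.

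*Rcan1* lies on the minus strand of chr16:92391951-92466169 (mm10) and is read from start sites far apart. The outer start gives the long transcript, and the inner start gives a shorter one that is known as a feedback target of calcineurin itself, switched on by NFAT. The 250 bases before each start are shown because they tell the starts apart, from RefSeq on GRCm38.p6, 5′ to 3′ on the minus strand, with the NFAT core GGAAA or its reverse complement TTTCC in capitals.
Rcan1 inner start, chr16:92400079-92400328: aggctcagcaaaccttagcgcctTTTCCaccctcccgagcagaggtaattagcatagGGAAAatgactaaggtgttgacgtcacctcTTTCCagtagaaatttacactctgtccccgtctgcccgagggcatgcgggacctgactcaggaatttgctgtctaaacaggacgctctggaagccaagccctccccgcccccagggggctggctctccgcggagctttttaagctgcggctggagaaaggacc
Rcan1 outer start, chr16:92466170-92466419: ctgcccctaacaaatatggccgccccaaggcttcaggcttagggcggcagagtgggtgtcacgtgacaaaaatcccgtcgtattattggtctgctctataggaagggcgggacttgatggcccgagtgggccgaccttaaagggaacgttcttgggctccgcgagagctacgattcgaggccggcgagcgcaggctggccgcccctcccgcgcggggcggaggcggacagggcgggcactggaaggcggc
The inner window held 3 cores, with first bases at -227, -193 and -163 counted from the start site, and the outer window held 0. Over the set, 6 of 14 windows held at least 1 core and 2 held 3 or more, the other being that of the first start of *Mef2c* with 5, a gene whose averages differed by 0.07. Of 32851 windows of this length 55.6% held at least 1 such core and 6.39% held 3 or more. The probe set listed 2 RefSeq transcripts and gave 1 value for the gene, so the rise could not be assigned to either start. The core is short, the motif was chosen after the sequences were seen, and its presence is a description of letters only.

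*Rcan1* averaged 12.86 ± 0.29 in MYTHO-KD and 11.65 ± 0.34 in scramble muscles. The MYTHO-KD values could not lie under 12.41 nor the scramble values over 12.17, so the groups did not overlap within these bounds. Among all probe sets 0.991% were apart in this way with MYTHO-KD higher and 0.946% with MYTHO-KD lower. The difference was 1.21 ± 0.21 (SE), with an adjusted p of 0.0443 by limma. It ranked 107 among the 22206 differences counted from the top, and 52 by p-value. The adjusted p stayed under 0.05 in 5 of 7 ways of computing it and was 0.210 without sharing variance between probe sets and 0.344 with unequal variances, while the unadjusted p was at most 0.00177. RCAN1 is also made outside muscle fibres, and the part that the macrophage, fibroblast and endothelial shifts given above have in its rise was not tested.

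The related *Rcan2*, another inhibitor of calcineurin that is abundant in muscle and brain, had a lower average in MYTHO-KD without passing the test. It stood at 13.04 ± 0.45 in MYTHO-KD and 13.33 ± 0.52 in scramble muscles, with a difference of -0.29 (95% interval -0.91 to 0.33) and an adjusted p of 0.754 by limma. Its SDs were the widest of the 10 genes, and its interval was the only one among the 8 genes with no p under 0.05 to reach past 1.5-fold. *Rcan3*, the remaining RCAN gene, was at 6.34 ± 0.20 and 6.32 ± 0.19. The difference between the responses of *Rcan1* and *Rcan2* itself was not tested.

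Of the phosphatase only subunit mRNA was measured, not protein or activity, and no subunit gene passed the test. *Ppp3ca*, a catalytic subunit (chr3:136670124-136937727, plus strand, mm10), averaged 15.32 ± 0.39 in MYTHO-KD and 15.28 ± 0.27 in scramble muscles. The difference of 0.04 had a 95% interval of -0.44 to 0.52, which leaves room for a change of up to 1.43-fold. Of the 5 subunit genes on the list 0 passed an unadjusted p of 0.05. The other catalytic subunit of most tissues, *Ppp3cb*, had the largest difference among them, with 17.31 ± 0.15 against 17.61 ± 0.19. Its difference of -0.30 had a 95% interval of -0.66 to 0.06 and an unadjusted p of 0.0949 by limma. A further catalytic subunit gene, *Ppp3cc*, averaged 11.26 ± 0.18 in MYTHO-KD and 11.15 ± 0.34 in scramble muscles. The regulatory subunit *Ppp3r1* was at 14.53 ± 0.22 and 14.54 ± 0.14, and the testis form *Ppp3r2* lay near the floor of the scale in both groups.

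Of 8 regulators and anchors of calcineurin 2 rose and 0 fell at an unadjusted p under 0.05 (limma), namely *Rcan1* and *Myoz2*. Among all probe sets 6.48% were higher and 5.52% lower at this limit. *Myoz2* encodes calsarcin-1, a Z-disc protein of slow fibres and heart that ties calcineurin to alpha-actinin. It averaged 17.37 ± 0.70 in MYTHO-KD and 16.23 ± 0.52 in scramble muscles, a 2.20-fold difference (1.14, 95% interval 0.40 to 1.88) that met the 2-fold limit but had an adjusted p of 0.200 and overlapping bounds. The calsarcins of fast fibres, *Myoz1* and *Myoz3*, had lower averages in MYTHO-KD, with differences of -0.19 and -0.43 that did not pass. The anchor *Akap5* and the inhibitor *Cabin1* differed by -0.16 and 0.19.

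**Figure D2:**
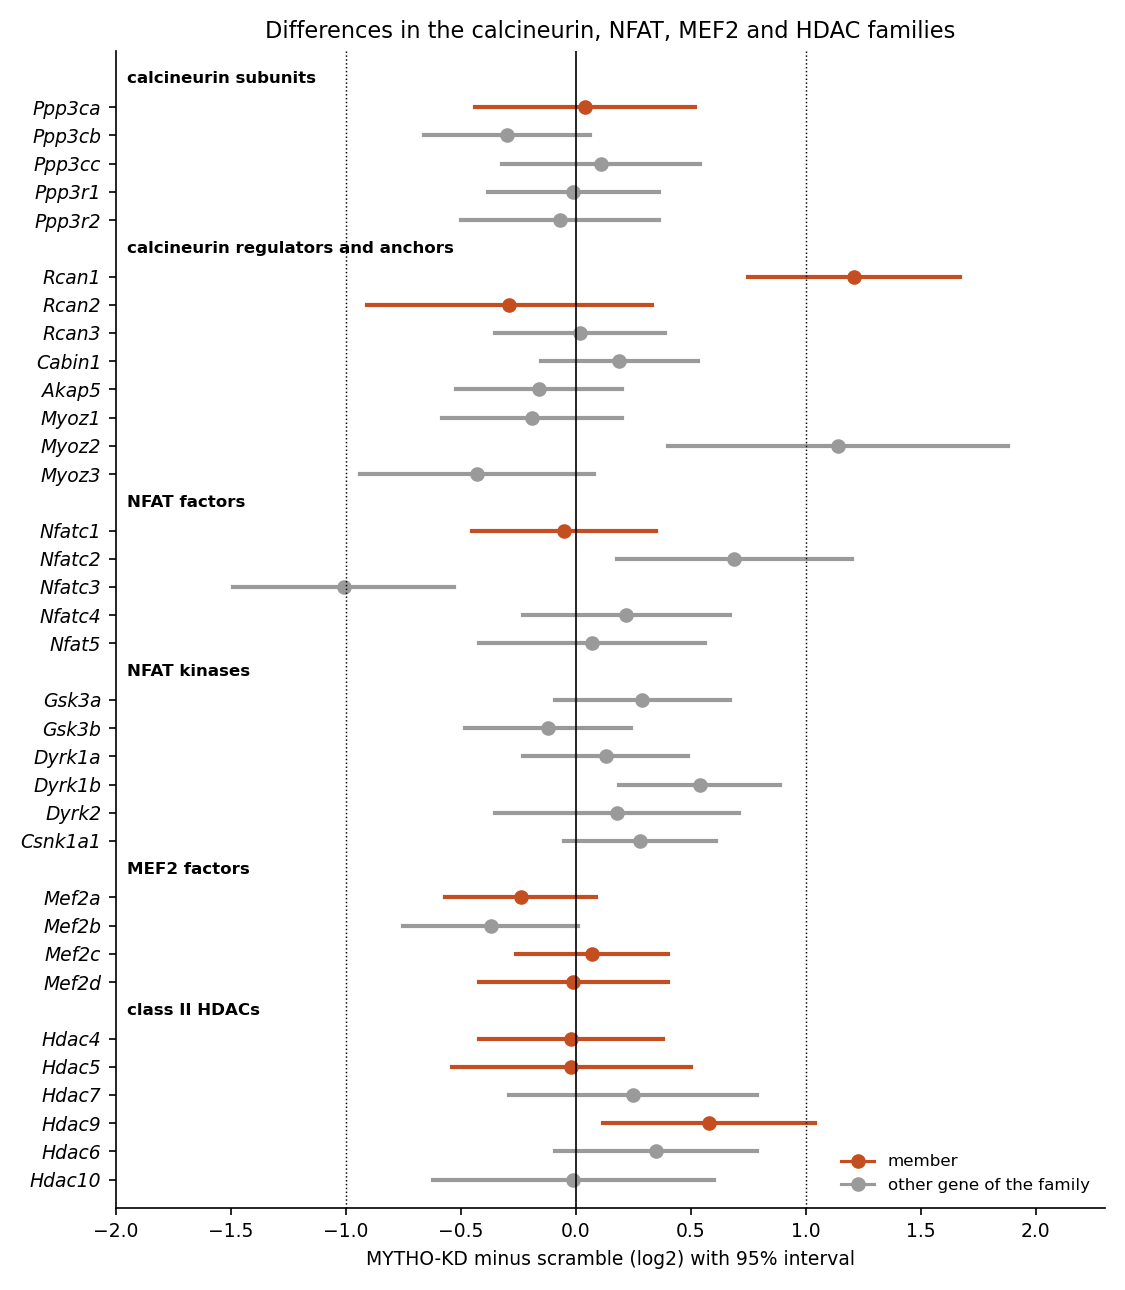
MYTHO-KD minus scramble (log2, horizontal axis) for the genes of 6 families, with the point as the difference and the bar as its 95% interval from limma's moderated variance (4 arrays per group). The 10 genes of the set are in orange, other genes of their families in grey, and the dotted lines mark 2-fold. *Rcan1* and *Myoz2* lie past 2-fold on the higher side and *Nfatc3* on the lower side.

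*Nfatc1*, the NFAT factor that is itself raised by calcineurin in many cells and acts in slow fibres (chr18:80606205-80713071, minus strand, mm10), did not move measurably. It averaged 11.60 ± 0.12 in MYTHO-KD and 11.65 ± 0.30 in scramble muscles. The difference of -0.05 had a 95% interval of -0.45 to 0.35. Its relatives had differences in both directions. *Nfatc3*, a factor known from early muscle formation, fell from 12.73 ± 0.23 to 11.72 ± 0.41, a difference of -1.01 (95% interval -1.49 to -0.53) that met the 2-fold limit. Its bounds did not overlap between groups. Its adjusted p was 0.0903 by limma, and it was under 0.05 in 1 of 7 settings, with 0.0358 under a trended and robust prior, 0.281 without moderation and 0.429 with unequal variances. *Nfatc2*, a factor of myofibre growth that is abundant in lymphocytes too, averaged 8.15 ± 0.37 against 7.46 ± 0.36, with a difference of 0.69 and an adjusted p of 0.258, and the part of other cell types in it was not tested. *Nfatc4* differed by 0.22 and the salt-responsive *Nfat5* by 0.07. In all, 1 of the 5 NFAT genes was higher, 1 was lower and 3 did not pass at an unadjusted p of 0.05. Of all probe sets 6.48% were higher and 5.52% lower. A difference between *Nfatc1* and *Nfatc3* in their response was not tested.

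NFAT factors leave the nucleus when kinases restore their phosphates. Of 6 such kinases 1 was higher and 0 were lower at an unadjusted p under 0.05, against 6.48% and 5.52% of all probe sets. *Dyrk1b*, a kinase of the muscle lineage also called MIRK, averaged 12.29 ± 0.08 in MYTHO-KD and 11.75 ± 0.19 in scramble muscles. Its bounds did not overlap, and its difference of 0.54 had an adjusted p of 0.197 (limma). The other 5, which include *Gsk3a*, *Gsk3b* and *Dyrk1a*, differed by -0.12 to 0.29.

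The 3 MEF2 genes of the set, which encode factors that drive muscle differentiation and fibre-type genes, did not pass the test, and some of their probe sets had small SDs. *Mef2c* (chr13:83504034-83667079, plus strand) averaged 17.07 ± 0.07 and 17.00 ± 0.14, and *Mef2d* (chr3:88142372-88172086, plus strand) 15.07 ± 0.21 and 15.08 ± 0.27 in MYTHO-KD and scramble muscles. The 95% interval of *Mef2c* ran from -0.26 to 0.40 and that of *Mef2d* from -0.42 to 0.40. *Mef2a* (chr7:67231163-67372858, minus strand) averaged 14.70 ± 0.09 against 14.94 ± 0.10. These SDs are so small that only 1.05% of probe sets had a smaller pooled SD, and here the treatment of the variance decided on which side of 0.05 the unadjusted p fell. The difference of -0.24 had an unadjusted p of 0.134 in limma's moderated test but 0.0118 with the gene's own variance and 0.0120 with unequal variances, while the adjusted p was 0.573, 0.333 and 0.452. The bounds overlapped, with MYTHO-KD values reaching up to 14.85 and scramble values down to 14.78. *Mef2b*, the fourth family gene, lay low at 4.77 in MYTHO-KD and 5.14 in scramble muscles. Thus 0 of 4 MEF2 genes passed an unadjusted p of 0.05.

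Among the class II HDACs, *Hdac9* gave the only value with an unadjusted p under 0.05. It encodes a deacetylase and, through splicing, a MEF2-binding form without the catalytic domain (chr12:34047582-34917095, minus strand, mm10). *Hdac9* averaged 11.02 ± 0.37 in MYTHO-KD and 10.44 ± 0.25 in scramble muscles, 1.495-fold higher with a 95% interval of 1.08 to 2.06. The difference of 0.58 missed the 2-fold limit, its adjusted p was 0.307 by limma, and the bounds of the groups overlapped. *Hdac9* ranked 875 among all differences from the top. The part that the macrophage, fibroblast and endothelial shifts given above have in this value was not tested.

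*Hdac4*, the deacetylase that carries the signal of denervation in muscle, had nearly equal averages in both groups by both of its probe sets. The brighter one gave 8.95 ± 0.21 in MYTHO-KD and 8.97 ± 0.25 in scramble muscles, and the other 8.80 ± 0.40 and 8.72 ± 0.31. The 95% interval of the brighter probe set ran from -0.42 to 0.38. *Hdac5*, a close relative that restrains MEF2 in muscle and heart, averaged 7.21 ± 0.43 and 7.23 ± 0.33, with an interval of -0.54 to 0.50, from a probe set that it shares with the microRNA gene *Mir8101*. *Hdac7* and *Hdac6* differed by 0.25 and 0.35 and *Hdac10* by -0.01, all with an unadjusted p over 0.05. Thus 1 of 6 class II genes was higher and 0 were lower, against 6.48% and 5.52% of all probe sets. For these genes mRNA was measured, and the place of the proteins in the cell, through which class IIa HDACs mostly act, was not.

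**Figure D3:**
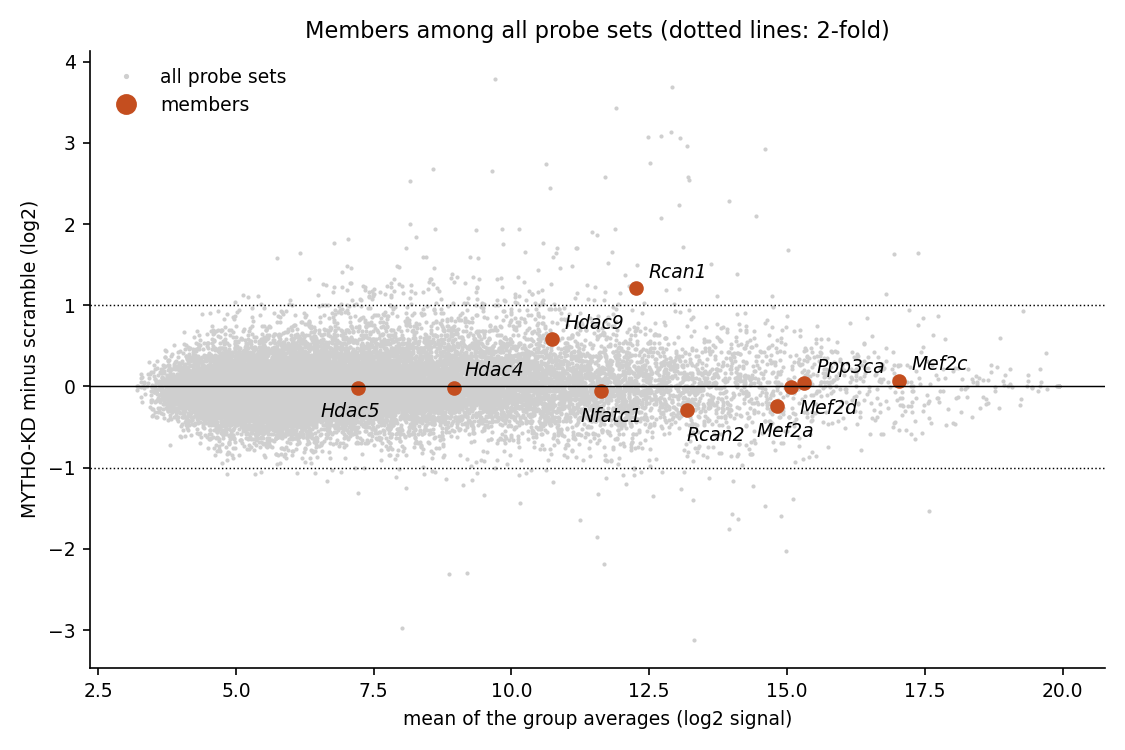
Mean of both group averages (log2 signal, horizontal axis) against MYTHO-KD minus scramble (log2, vertical axis) for all 22206 probe sets in grey and the 10 genes in orange, with dotted lines at 2-fold. *Rcan1* lies above the dotted line at 1.21 and *Hdac9* at 0.58, and the other 8 lie between -0.29 and 0.07.

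The precision sets what could be missed. The 95% intervals of the 10 genes reached 0.33 to 0.62 to either side of the difference. For 8 of the 10 the whole interval lay inside 2-fold, and for 7 inside 1.5-fold, where 89.2% and 38.4% of all probe sets did. For the 8 genes whose interval includes 0, a change within that interval could not be told from none with 4 arrays per group.

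The enzymes and carriers that move the HDACs gave differences in both directions, all under 2-fold. Of 14 kinases that phosphorylate class IIa HDACs or MEF2, 4 were higher and 2 lower at an unadjusted p under 0.05, against 6.48% and 5.52% of all probe sets, and 0 reached 2-fold or an adjusted p of 0.05 (limma). Of these 6, all but *Sik3* lost the unadjusted limit without moderation or with unequal variances, where *Prkd2* for example had p-values of 0.130 and 0.157. The higher ones were the protein kinase D genes *Prkd2* and *Prkd3* and the salt-inducible kinase genes *Sik1* and *Sik3*, with differences of 0.78, 0.48, 0.78 and 0.43. For *Sik3* the groups did not overlap within their bounds, at 12.54 ± 0.07 and 12.11 ± 0.16. The lower ones were *Camk2a*, a calcium/calmodulin-dependent kinase subunit, by -0.58, and *Mapk14*, the p38 kinase that activates MEF2, by -0.47. Of 7 genes for 14-3-3 proteins only *Ywhae* passed, at 17.79 ± 0.11 against 18.24 ± 0.05, lower by 0.45 on the log2 scale with bounds apart and an adjusted p of 0.245. Among the 3 corepressor partners *Hdac3*, the catalytic partner of class IIa enzymes, had the largest difference with -0.45 and an unadjusted p of 0.0932 by limma.

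**Figure D4:**
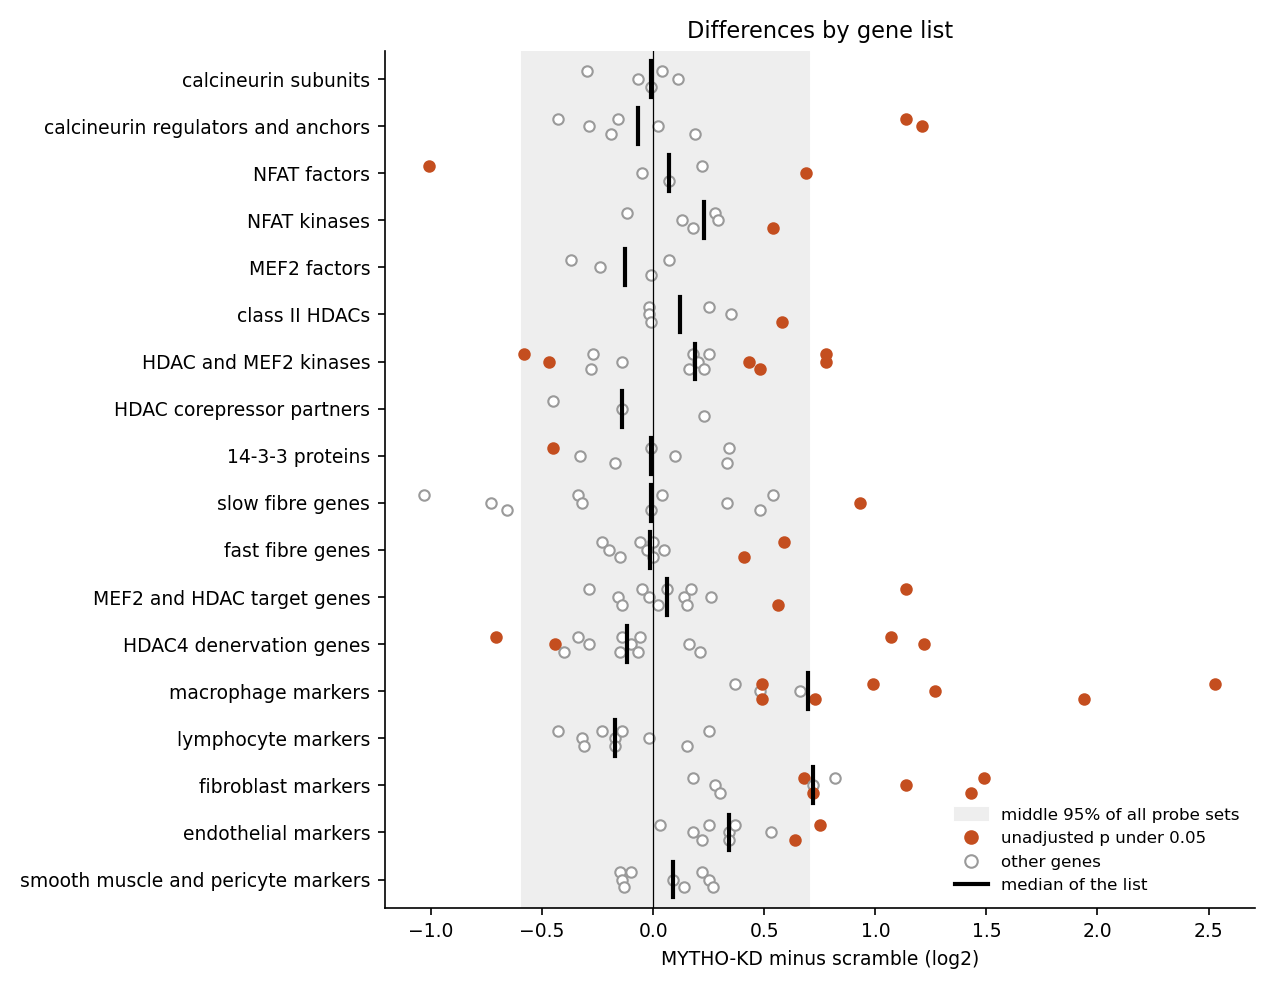
MYTHO-KD minus scramble (log2, horizontal axis) for each gene of the pathway and cell type lists, without the list of muscle markers. Filled points have an unadjusted p under 0.05 (limma), black bars are list medians, and the grey band holds the middle 95% of all probe sets, from -0.59 to 0.70. The medians of the 9 calcineurin, NFAT, MEF2 and HDAC machinery lists lie between -0.14 and 0.23, and those of macrophage and fibroblast markers at 0.695 and 0.72.

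Downstream genes were read from lists of what this pathway is known to control. Of 11 slow fibre genes 1 was higher and 0 were lower at an unadjusted p under 0.05, against 6.48% and 5.52% of all probe sets. That gene was *Mb*, for myoglobin, at 19.75 ± 0.34 against 18.82 ± 0.13 (adjusted p = 0.0754, limma), whose MYTHO-KD values lie near the top of the scale at 19.93. The slow contractile genes had wide SDs, and the genes named in the next 2 sentences were chosen after their values were seen. *Myh7*, the slow myosin heavy chain, averaged 11.67 ± 3.26 in MYTHO-KD and 12.40 ± 1.30 in scramble muscles, and *Tnni1*, slow troponin I, 9.84 ± 3.67 and 10.87 ± 1.43. *Tnnc1*, troponin C of slow fibres, averaged 11.26 ± 3.40 and 11.92 ± 1.17. The median SD of the 11 genes was 2.08 in MYTHO-KD and 0.77 in scramble muscles, and 10 of 11 were wider in MYTHO-KD. Over all probe sets 10686 of 22206 were wider in MYTHO-KD, and the median SD was 0.27 in both groups. Within MYTHO-KD the median SD of the 11 slow fibre genes exceeded each of their differences between groups, which ran from -1.03 to 0.93. The SDs of the 10 genes of the set were at most 0.52. Which arrays were high or low could not be read from averages, and the part of the slow fibre spread in *Myoz2*, a slow fibre gene, was not tested.

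**Figure D5:**
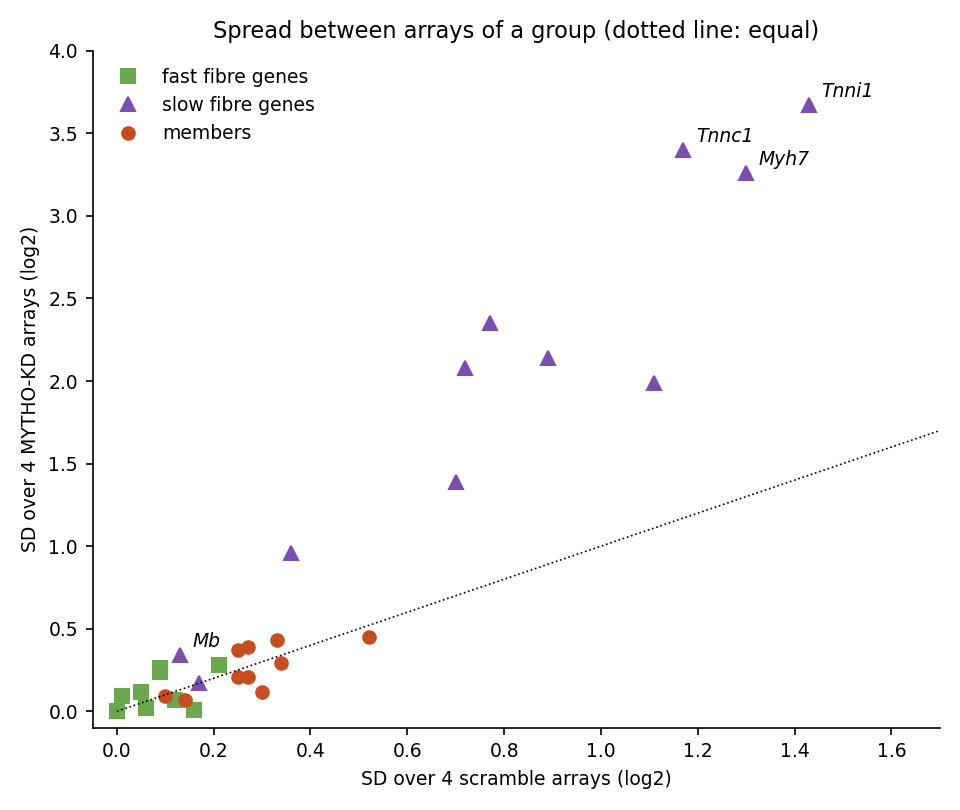
SD over the 4 scramble arrays (log2, horizontal axis) against SD over the 4 MYTHO-KD arrays (log2, vertical axis) for the 10 genes (circles), 11 slow fibre genes (triangles) and 10 fast fibre genes (squares), with equal SDs on the dotted line. The circles stay at or under 0.52 on both axes, while slow fibre genes reach 3.67 in MYTHO-KD.

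Of 10 fast fibre genes 2 were higher and 0 lower at an unadjusted p under 0.05, against 6.48% and 5.52% of all probe sets. These were the myosin heavy chains of oxidative fast fibres, *Myh1* at 18.17 ± 0.28 against 17.58 ± 0.21 and *Myh2* at 19.91 ± 0.01 against 19.50 ± 0.16. Both had adjusted p-values over 0.05 (0.230 and 0.315, limma), and *Myh2* was at the top of the scale in MYTHO-KD muscles, where a larger rise would not show. In another muscle, the tibialis anterior, the paper reported the other direction. There *Myh2* was lower by RT-qPCR at all its time points, and type IIA fibres were a smaller share. Other fast fibre genes also sat at or near the top of the array scale. *Myh4* and *Atp2a1* averaged 19.93 in both groups, where a change could not show. *Tnni2*, *Tnnt3* and *Mylpf* averaged 19.52 to 19.73, which left little room for a rise.

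Of 13 genes known as targets of MEF2 or of class IIa HDACs 2 were higher and 0 lower at an unadjusted p under 0.05. The shares over all probe sets were 6.48% and 5.52%. *Xirp1*, which encodes an actin-binding repair protein of muscle and is a MEF2 target, rose 2.20-fold. It averaged 10.95 ± 0.26 in MYTHO-KD and 9.81 ± 0.31 in scramble muscles, with bounds apart and an adjusted p of 0.0443. *Jun*, an immediate-early factor gene with a MEF2 site in its promoter, averaged 10.27 ± 0.28 and 9.71 ± 0.34, a difference of 0.56 with an adjusted p of 0.321 by limma. The other 11 targets, among them *Ppargc1a*, *Slc2a4* and *Nr4a1*, did not pass.

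The MEF2 motif was searched only in the strict form of CTA, 4 letters A or T, and TAG, so other forms were not counted. This form was present in 0.508% of the 32851 windows before RefSeq starts and in 1 of the 14 windows of 8 genes of the set. Among the other pathway genes, which include genes chosen as MEF2 targets, 4 of 95 windows held it, and 2 of 84 with the target list left out. Windows of *Ppp3ca* and *Nfatc1* were not used here, and 73 of the 96 other pathway genes had a window that was used. The stretches of the member with this form, and of both other genes with it that had an unadjusted p under 0.05, are shown from RefSeq on GRCm38.p6. They run 5′ to 3′ on the minus strand, with the motif in capitals.
Hdac5, chr11:102230173-102230217: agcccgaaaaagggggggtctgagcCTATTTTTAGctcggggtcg
Jun, chr4:95052223-95052280: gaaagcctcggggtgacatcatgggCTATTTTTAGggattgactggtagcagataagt
Myoz2, chr3:123034988-123035045: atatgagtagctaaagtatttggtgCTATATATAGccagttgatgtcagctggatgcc
The first base of the motif lay at -20 from the start of *Hdac5*, whose averages were alike in both groups, and at -33 from the starts of *Jun* and *Myoz2*. The remaining windows with this form of the motif belonged to *Klf2* and *Ywhah* of the pathway lists and to *Ttn*, which is on the list of muscle markers. The form searched reads alike on both strands, none of these matches overlapped an NFAT core, and the window of *Myoz2* also held cores at -190 and -182.

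Genes that HDAC4 controls after denervation moved in both directions, with 2 of 14 higher and 2 lower at an unadjusted p under 0.05. Their median was -0.12. Over all probe sets 6.48% were higher and 5.52% lower. *Chrna1*, for the alpha subunit of the acetylcholine receptor, averaged 7.80 ± 0.57 against 6.73 ± 0.31, and *Runx1*, a transcription factor induced by denervation that blood cells express too, 7.96 ± 0.62 against 6.74 ± 0.48. These differences of 1.07 and 1.22 met the 2-fold limit with adjusted p-values of 0.141 and 0.146 by limma, and the part of the macrophage shift in that of *Runx1* was not tested. *Musk*, for the receptor kinase of the neuromuscular junction, was lower by 0.71 on the log2 scale and *Trim63*, for the ubiquitin ligase MuRF1, by 0.44. *Myog*, the myogenic factor that HDAC4 raises on denervation, was at 6.55 ± 0.32 against 6.34 ± 0.06, a value named outside the naming rule. In another muscle, the tibialis anterior, the paper reported that *Myog* was raised by RT-qPCR at various time points of the knockdown. *Hdac4* itself had nearly equal averages on the arrays.

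Over the 96 pathway genes outside the set, 14 were higher, 6 lower and 76 did not pass at an unadjusted p under 0.05, and 4 were called higher and 1 lower at 2-fold. Over all probe sets these shares were 6.48% and 5.52%, and 0.86% and 0.257%. The called genes were *Myoz2*, *Xirp1*, *Chrna1* and *Runx1* on the higher side and *Nfatc3* on the lower side. The median difference of these 96 genes was 0.00, against -0.01 for all probe sets.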

How the data were processed

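RNA from GAS muscle was hybridised to Clariom S Mouse arrays (mm10), 4 per group. The authors used the Transcriptome Analysis Console with SST-RMA and deposited, per probe set, group averages and SDs on the log2 scale (other columns hold annotation and the authors' fold changes, p-values and false discovery rates, which were not used). Whether the averages are plain means is not given in the sources used here; if they are robust averages, the p-values may be too low. The planned limma fit on single arrays was replaced by squeezeVar (limma 3.58.1, R 4.3.3) on each probe set's pooled variance (6 residual degrees of freedom, prior SD 0.284, 5.85 prior degrees of freedom). Benjamini-Hochberg adjustment covered all 22206 probe sets. The calculation was tested on simulated data.

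The genes, the lists and the motifs were chosen with earlier results of these data known. Named are the 10 genes, *D230025D16Rik*, every gene of the 5 core families, and in each pathway list the genes with an unadjusted p under 0.05 or, failing that, the gene with the largest difference; names outside this rule are marked or given without a test. Summed levels are log2 of summed linear averages. P-values set the group difference against the spread between muscles within a group, and arrays were not tied to mice. The muscles were treated as independent although the groups were opposite legs, so p-values and intervals are not those of a paired design. Alternatives were other treatments of the variance, a filter on dim probe sets, 1 probe set per symbol, other thresholds and median centring.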

Additional observations from a re-analysis of the deposited data

How the results depend on the processing

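No paired analysis was possible because the table holds group averages and no values of single arrays, and for the same reason the planned fit on single arrays and the removal of each array in turn were not run. With an unadjusted p under 0.05 at any fold, 2 genes of the set were higher in place of 1. Among the other pathway genes, called higher at 2-fold in 4 cases and lower in 1, a 1.5-fold limit gave 9 higher and 2 lower, an adjusted p under 0.05 gave 1 higher and 0 lower, and an unadjusted p under 0.05 at any fold gave 14 higher and 6 lower. For 30 named genes, 181 values were recomputed under alternatives: 168 kept their side of the unadjusted limit without turning (1 of them, *Mef2d* after centring, at 0), 10 lost it (*Camk2a*, *Prkd2*, *Prkd3*, *Sik1* and *Mapk14*, mostly without moderation or with unequal variances), 2 passed it (both *Mef2a*) and 1 turned, that of *Hdac4*, which was -0.02 from its brighter and 0.08 from its other probe set and passed no limit from either. The unadjusted p of *Rcan1* ran from 2.27e-05 to 0.00177 over 7 settings and that of *Hdac9* from 0.0141 to 0.0460, with adjusted p-values of 0.0121 to 0.344 and 0.250 to 0.551. The adjusted p of *Xirp1* was under 0.05 in 5 of 7 settings. The cause of these shifts was not tested beyond the settings named. Arrays have no depth of reads. A rise cannot be seen in signals already at 19.93, the highest average, and 4 arrays per group limit the precision.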
